A study of Mus musculus with 4 samples.

Results

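The genes described here are 54 genes of mitosis, the kinetochore and cytokinesis, measured by RNA-seq in bulk tissue of the mouse cortex on embryonic day 15. They were chosen by gene symbol from a list of cell division genes, and all 54 are among the 13289 genes of the deposited count table. The study set 2 control libraries, titled WT, against 2 Lhx2 cKO libraries, in which Lhx2, a LIM-homeodomain transcription factor of cortical progenitors, was targeted. The labels call the first group control and WT. The abbreviation cKO is taken to mean a conditional knockout. Any Cre driver, the allele, the strain, the litters, the sex of the embryos and any pooling are not given in the labels. Nothing in the labels says that the 2 libraries of a group came from separate animals. The p-values therefore rest on the spread between these libraries, largely pooled over all genes, and that spread may be technical.

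Cells in mitosis condense their chromosomes, attach them to spindle microtubules through kinetochores, separate them at anaphase and then split by cytokinesis. Entry is driven by Cdk1 bound to cyclins A and B, and exit by the anaphase-promoting complex (APC/C), a ubiquitin ligase that destroys cyclin B and securin once the spindle checkpoint is satisfied. Transcripts of these genes build up in G2 and M phase, and in the embryonic cortex they mark dividing radial glia at the ventricular surface and dividing intermediate progenitors, while neurons have left the cell cycle.

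Total counts per library ranged from 22294237 to 24609627, so that 3 counts, taken as the floor of detection, were worth 0.122 to 0.135 CPM (counts scaled to a common library size). Levels are CPM with TMM scaling factors, and a gene is called when the adjusted p of edgeR's quasi-likelihood test is under 0.05 over the 13288 genes tested. The targeted gene measured 316 and 287 CPM in control and 239 and 247 CPM in Lhx2 cKO, so 80.7% of the control level remained (log2 fold change -0.31, SE 0.0976, adjusted p 0.0191). That call was lost without control 1 (adjusted p 0.176), without Lhx2 cKO 1 (0.102) and without Lhx2 cKO 2 (0.0538). As a check of the labelled tissue, the pan-neuronal gene Tubb3 was at 1780 to 2040 CPM and the progenitor gene Sox2 at 37 to 44.4 CPM over the 4 libraries.

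Most mitosis genes were lower in the Lhx2 cKO cortex. Of the 54 members, 44 (81.5%) were called lower and 0 higher, where 9.17% of all genes tested were called lower, 11.6% higher and 20.8% in either direction. At an unadjusted p under 0.05 and by DESeq2 no member was higher either. The median log2 fold change of the members was -0.62, against 0.00 over all genes tested, and 53 of 54 members had a negative value, as did 49.5% of all genes. In 52 members both Lhx2 cKO libraries lay below both control libraries, which 29.1% of all genes did, and in 1 member, Pttg1, both lay above, which 30.2% of all genes did. The changes were of moderate size: called members kept between 50.6% and 77.4% of their control level, and none reached a 2-fold drop. Summed over the 54 genes, the level was 1440 and 1560 CPM in the control libraries and 993 and 960 CPM in the Lhx2 cKO libraries. In bulk tissue, fewer dividing cells and less RNA per dividing cell cannot be told apart.

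**Figure D1:**
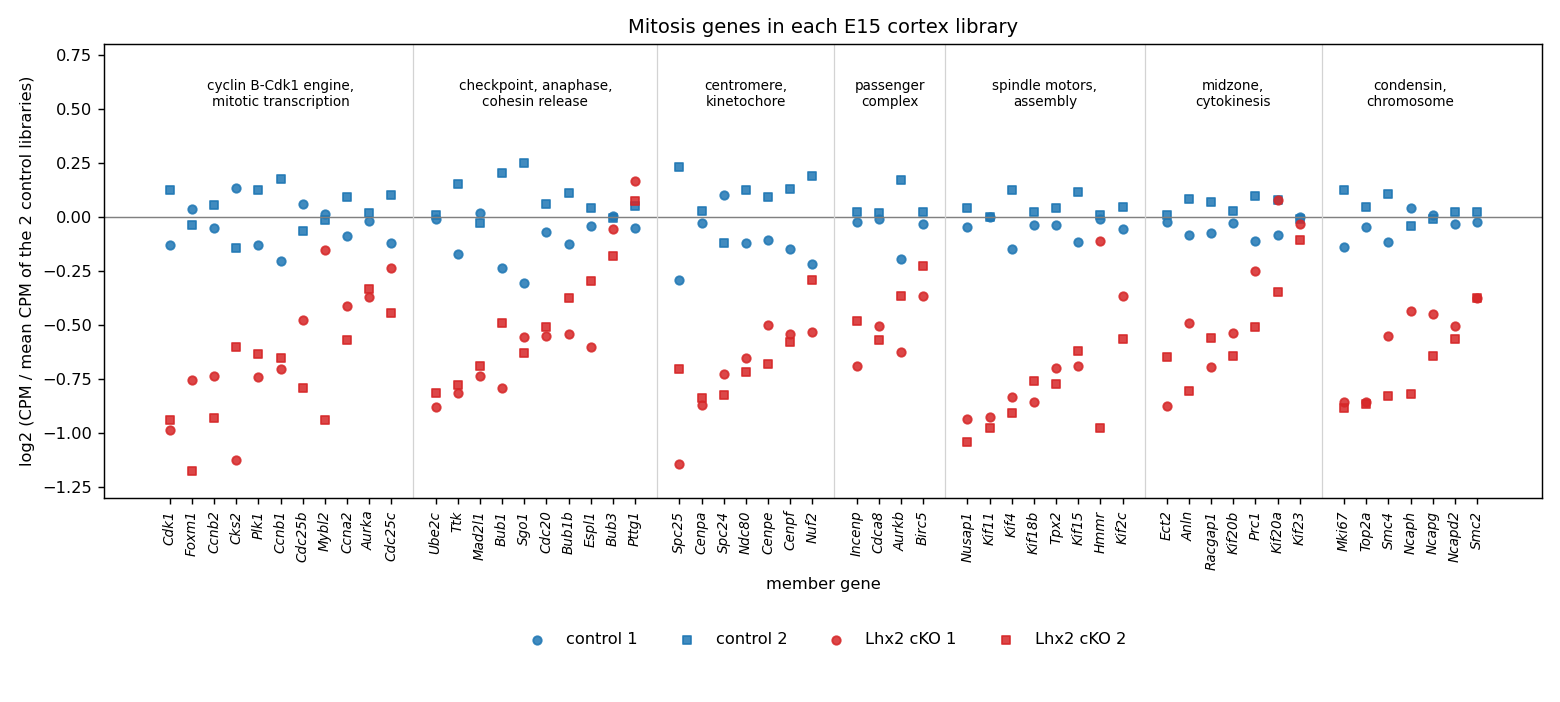
Each member's level in each library as log2 of its CPM over the mean CPM of the 2 control libraries (vertical axis), with members ordered along the horizontal axis by functional group; blue marks are control and red marks Lhx2 cKO libraries, with circles for library 1 and squares for library 2 of a group. The red marks lie below the blue ones for 52 of 54 members, the exceptions being Pttg1 and Kif20a.

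Log2 fold changes of the members had an SD of 0.239, against 0.436 over all genes tested. The median standard error of a member was 0.146. Subgroup medians ran from -0.51 for the chromosomal passenger complex and -0.56 for the spindle checkpoint and anaphase genes, through -0.59 for midzone and cytokinesis, -0.61 for condensin and mitotic chromosome, -0.68 for the cyclin B-Cdk1 engine and -0.69 for the kinetochore, to -0.77 for spindle motors and assembly factors. These medians rest on 4 to 11 genes each and their differences were not tested.

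**Figure D2:**
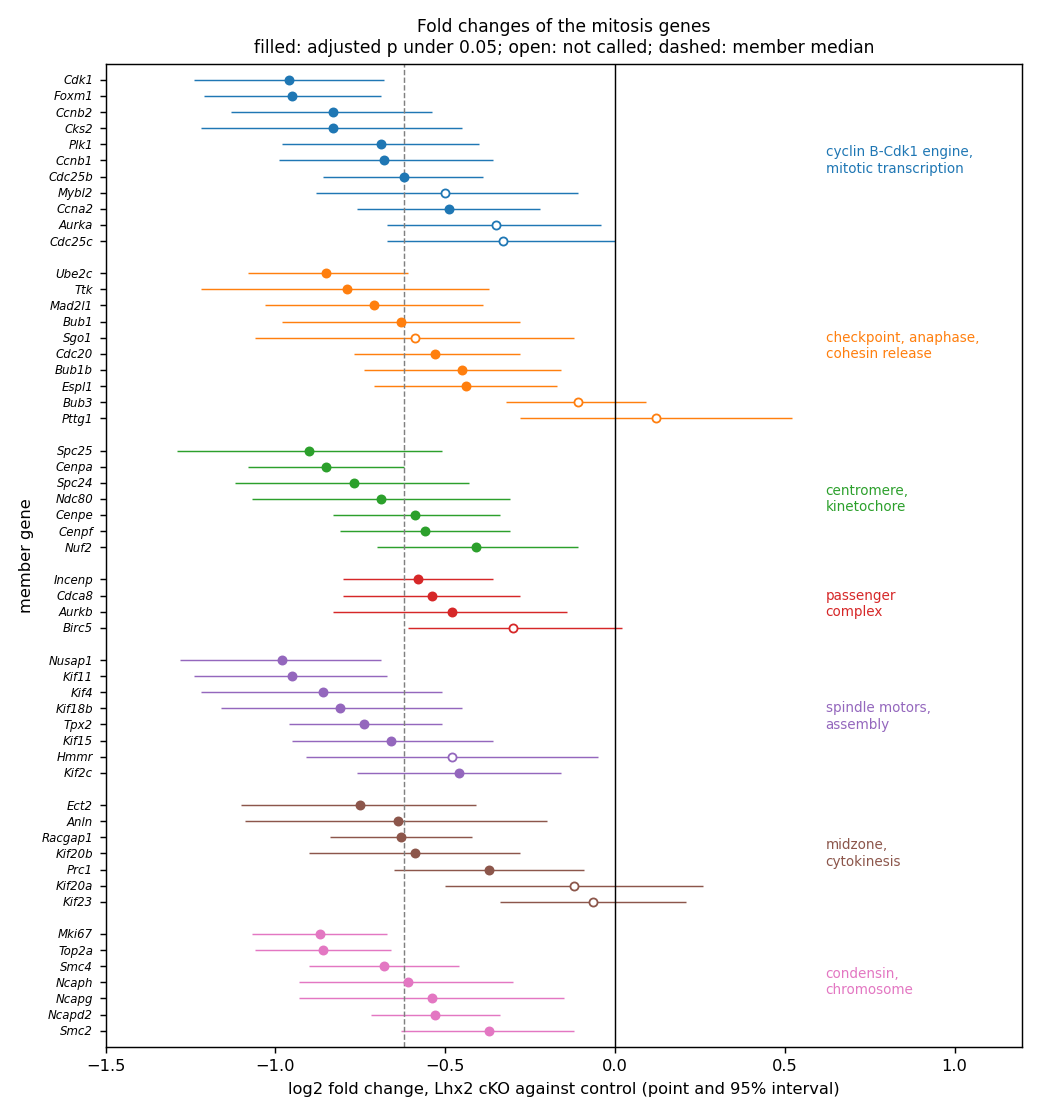
Log2 fold change of each member with its 95% interval from the edgeR fit (horizontal axis), by functional group (vertical axis); filled points were called and open points were not, and the dashed line is the member median of -0.62. All 10 open points lie at or to the right of -0.59.

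Control libraries were not alike in these genes. Control 2 exceeded control 1 in 43 of 54 members (79.6%, against 50.2% of all genes tested), by a median of 0.096 on the log2 scale, while Lhx2 cKO 2 exceeded Lhx2 cKO 1 in 23 of 54. Without control 2 the number called lower fell to 28, where 8.12% of all genes were called lower, and the member median was -0.55; without control 1 they were 42, 5.98% and -0.70. Without Lhx2 cKO 1 the number was 39 (7.53% of all genes), and without Lhx2 cKO 2 it was 35 (5.78%). DESeq2 called 36 members lower, where 7.34% of all genes were. At an adjusted p under 0.01 the number was 35 (5.46%). It was 44 with RLE factors (9.38%) and without a low-count filter (9.17%), 45 with library totals alone (9.23%), 43 among genes with a mean count of 50 or more (9.36%) and 45 with the replicate number as a block (9.57%). In all, 26 members were called lower under every alternative run at an adjusted p of 0.05, and 18 lost the call in at least 1, 16 of them without control 2. Those 18 were Anln, Aurkb, Bub1, Bub1b, Ccna2, Ccnb1, Cenpf, Espl1, Kif20b, Kif2c, Ncapg, Ncaph, Ndc80, Nuf2, Prc1, Smc2, Spc25 and Ttk. The authors' deposited table gave an adjusted p under 0.05 and a lower level to 44 members, the same 44 genes, and to 9.38% of all its genes. It rests on the same counts, and the submitters' notes name edgeR, so this match is not independent support. In the authors' deposited table, 31 members and 3.54% of all genes were marked down, and 0.585 was the smallest absolute log2 fold change with such a mark.

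Many promoters of the members share short sequences. The motifs were looked up because they are known from genes of this kind. An excess over all promoters was therefore likely beforehand and does not concern Lhx2 cKO. Many genes of G2 and M phase are known to carry a cell cycle homology region (CHR), written TTTGAA or TTTAAA, which is bound by the MuvB core of the DREAM and Myb-MuvB complexes, downstream of CCAAT boxes bound by NF-Y. RefSeq windows of 250 bases before to 50 bases after the start (GRCm38.p6) were found for 45 members, 3 of them with more than 1 start, giving 48 promoters; Aurkb, Ccna2, Cdc25c, Foxm1, Incenp, Kif20a, Smc4, Spc24 and Tpx2 had none in the table. On either strand, TTTGAA was present in 72.9% of the 48 promoters and in 17.9% of all 32851 promoters of the table, or 11.8% of the promoters of genes in the count table. TTTAAA was present in 18.8% against 13.2%, and CCAAT in 75% against 37.4%. Either hexamer together with CCAAT was present in 66.7% of member promoters and in 10.7% of all promoters. Sites of different motifs overlapped in 1 case among the members. Windows of the 3 members with more than 1 start overlap each other, so sites they share are counted for each start. These are matches of letters and do not show that a factor was bound.

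**Figure D3:**
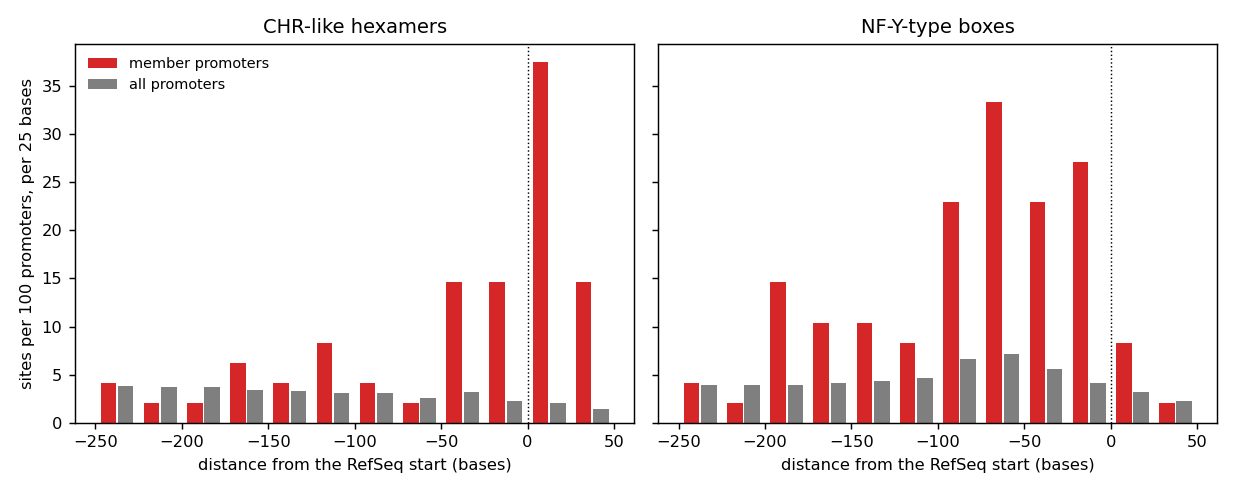
Number of CHR-like hexamers (left) and NF-Y-type boxes (right) per 100 promoters in windows of 25 bases (vertical axis) against distance from the RefSeq start in bases (horizontal axis), for the 48 member promoters in red and all 32851 promoters in grey. In member promoters the hexamers peak in the 25 bases after the start, at 37.5 per 100 promoters against 2.01 in all promoters. The boxes peak between 75 and 50 bases before the start, at 33.3 against 7.20. Sites shared by overlapping promoters of a gene are counted for each promoter.

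The 7 promoters below are given because they set the common layout beside its exceptions; each runs from 130 bases before to 30 bases after the RefSeq start, 5′ to 3′ on the gene's strand, in GRCm38.p6, and capitals mark either hexamer and the CCAAT box on either strand (TTCAAA is the reverse complement of the first hexamer and ATTGG that of the box). The first 5 genes were called lower, and the sixth, Nusap1, had the largest drop of all members. Kif23, the last, was not called.
Ccnb1, chr13:100786457-100786616, - strand: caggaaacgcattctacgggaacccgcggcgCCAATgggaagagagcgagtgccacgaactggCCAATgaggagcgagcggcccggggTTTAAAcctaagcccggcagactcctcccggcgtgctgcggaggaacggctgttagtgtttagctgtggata
Ccnb2, chr9:70421525-70421684, - strand: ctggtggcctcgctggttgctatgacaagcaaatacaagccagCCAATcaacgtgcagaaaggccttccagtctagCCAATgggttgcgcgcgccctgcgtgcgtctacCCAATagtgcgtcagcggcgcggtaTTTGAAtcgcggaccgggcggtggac
Cdc20, chr4:118437314-118437473, - strand: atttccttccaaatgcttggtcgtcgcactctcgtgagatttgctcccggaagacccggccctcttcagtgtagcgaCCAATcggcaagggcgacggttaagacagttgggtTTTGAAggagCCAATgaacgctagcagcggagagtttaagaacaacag
Cdk1, chr10:69352883-69353042, - strand: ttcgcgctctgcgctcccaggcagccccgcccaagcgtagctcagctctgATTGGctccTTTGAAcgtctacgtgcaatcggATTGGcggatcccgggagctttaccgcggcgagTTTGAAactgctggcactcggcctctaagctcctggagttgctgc
Kif11, chr19:37376252-37376411, + strand: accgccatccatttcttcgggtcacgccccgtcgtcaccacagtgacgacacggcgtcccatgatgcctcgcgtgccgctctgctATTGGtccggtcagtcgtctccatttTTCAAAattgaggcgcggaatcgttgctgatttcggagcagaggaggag
Nusap1, chr2:119618168-119618327, + strand: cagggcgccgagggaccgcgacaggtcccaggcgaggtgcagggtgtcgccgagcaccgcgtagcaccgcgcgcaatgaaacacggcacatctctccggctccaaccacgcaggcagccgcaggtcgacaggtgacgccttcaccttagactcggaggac
Kif23, chr9:61946770-61946929, - strand: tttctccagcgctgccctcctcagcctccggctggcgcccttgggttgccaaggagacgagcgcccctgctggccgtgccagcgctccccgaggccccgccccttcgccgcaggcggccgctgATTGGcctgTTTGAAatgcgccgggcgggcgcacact

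Cyclin B2, for example, has CCAAT boxes at -87, -54 and -21 and TTTGAA at 5, each position that of the match's first base on the gene's strand with the RefSeq start as 1, and a further TTTGAA at -167, outside the printed stretch, and cyclin B1 has boxes at -99 and -67 and TTTAAA at -42. The window of Nusap1, which had the lowest fold change, holds none of these letters, and that of Kif23, which was not called, holds both a CCAAT box and TTTGAA. Among the 45 members with a promoter, the 35 that hold either hexamer had a median log2 fold change of -0.63 with 30 called lower, and the 10 that hold neither had -0.62 with 7 called lower. For CCAAT the medians were -0.63 in the 33 members that hold it, with 28 called lower, and -0.60 in the 12 that do not, with 9 called lower.

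Of the genes that drive mitotic entry, 8 of 11 were called lower and 0 higher. Cdk1, the kinase that triggers mitosis, measured 23.7 and 28.2 CPM in control and 13.1 and 13.5 CPM in Lhx2 cKO. Its log2 fold change was -0.96 (SE 0.137, adjusted p 8.18e-07), leaving 51.3% of the control level. Foxm1, a transcription factor that activates G2 and M phase genes, was at 35.5 and 33.7 CPM against 20.5 and 15.3 CPM (log2 fold change -0.95, SE 0.128, adjusted p 2.45e-07). Both genes had groups that stood well apart, with a wider gap between the Lhx2 cKO libraries for Foxm1. Cks2, a small subunit that binds Cdk1, had the highest level per length of the subgroup, 12.9 CPM per kb. It was at 12.6 and 10.4 CPM in control and 5.27 and 7.57 CPM in Lhx2 cKO (log2 fold change -0.83, SE 0.193, adjusted p 0.00125), and it shares 240 bases at 98.3% to 100% identity with 3 processed pseudogenes, so its count is uncertain.

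The mitotic cyclins Ccnb1, Ccnb2 and Ccna2 were called lower, at log2 fold changes of -0.68, -0.83 and -0.49. The kinase Plk1 was called lower at -0.69, and so was Cdc25b, a phosphatase that activates Cdk1, at -0.62. Ccnb1 shares 51.7% of the transcript compared with the processed pseudogene Ccnb1-ps at 99.2% identity, and Ccna2 overlaps Exosc9 on the other strand. Without control 2 the calls of Ccnb1 (adjusted p 0.0749) and Ccna2 (0.0959) were lost, and that of Ccna2 also without Lhx2 cKO 2 (0.0843).

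The other 3 genes of this subgroup were not called. Aurka, the kinase of spindle poles, was at 14.3 and 14.7 CPM in control and 11.2 and 11.5 CPM in Lhx2 cKO, with a log2 fold change of -0.35 and a 95% interval from -0.67 to -0.04 (adjusted p 0.104). Cdc25c, a paralogue of Cdc25b, was at 11.5 and 13.4 CPM against 10.6 and 9.18 CPM (log2 fold change -0.33, adjusted p 0.163), and it overlaps Gm3550 on the other strand. Mybl2, the Myb subunit of the Myb-MuvB complex, was at 12.2 and 12 CPM in control and 10.9 and 6.31 CPM in Lhx2 cKO (log2 fold change -0.50, adjusted p 0.056). Groups did not overlap for any of these 3 genes, but 29.1% of all genes tested were likewise lower in both Lhx2 cKO libraries. For Mybl2 the 2 Lhx2 cKO libraries disagreed: without Lhx2 cKO 1 its log2 fold change was -0.94 (adjusted p 6.85e-04), and it was also called with library totals alone (0.0336). Part of its transcript is 99.7% identical to the processed pseudogene Gm3320.

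Among spindle checkpoint and anaphase genes 7 of 10 were called lower and 0 higher. Ube2c, the ubiquitin-conjugating enzyme that works with the APC/C, was at 36.8 and 37.3 CPM in control and 20.2 and 21.1 CPM in Lhx2 cKO (log2 fold change -0.85, SE 0.116, adjusted p 3.27e-07), and 22.8% of its exonic bases overlap Tnnc2 on the other strand. Ttk, the checkpoint kinase Mps1, was at 7.55 and 9.44 CPM against 4.83 and 4.96 CPM (log2 fold change -0.79, SE 0.21, adjusted p 0.00482), with the call lost without control 2 (0.1). Cdc20, the APC/C activator held back by the checkpoint, had the highest level per length of the subgroup, 13.5 CPM per kb. It was at 28.5 and 31.2 CPM in control and 20.4 and 21 CPM in Lhx2 cKO (log2 fold change -0.53, SE 0.121, adjusted p 0.00114). The checkpoint genes Mad2l1, Bub1 and Bub1b were called lower at -0.71, -0.63 and -0.45, and Espl1, the separase that cuts cohesin, at -0.44. Without control 2 only 3 genes of the subgroup were called lower, Ube2c, Mad2l1 and Cdc20, and without Lhx2 cKO 1 there were 4.

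Bub3, Pttg1 and Sgo1 were not called. Bub3, which brings Bub1 and Bub1b to kinetochores and has roles outside mitosis, was at 65.3 and 65.0 CPM in control and 62.8 and 57.6 CPM in Lhx2 cKO. Its log2 fold change of -0.11 had a 95% interval from -0.32 to 0.09, which does not reach the member median. Pttg1, the securin that inhibits separase, was the only member with a positive value, at 6.80 and 7.28 CPM against 7.91 and 7.40 CPM (log2 fold change 0.12, 95% interval -0.28 to 0.52, adjusted p 0.723). Sgo1, which protects centromeric cohesin, was at 5.44 and 8 CPM against 4.57 and 4.35 CPM (log2 fold change -0.59, adjusted p 0.0661) and was called without control 1 (-0.85, adjusted p 0.0198). Sgo1 had the lowest level of the 54 members, a mean of 5.59 CPM, and a wide standard error of 0.234.

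All 7 centromere and kinetochore genes were called lower. Cenpa, the histone H3 variant that marks centromeres, measured 37.9 and 39.4 CPM in control and 21.1 and 21.6 CPM in Lhx2 cKO (log2 fold change -0.85, SE 0.114, adjusted p 2.06e-07), and it had the highest level per length here, 5.12 CPM per kb. The 4 subunits of the Ndc80 complex, the rod that holds microtubules, were all lower, with log2 fold changes of -0.90 for Spc25, -0.77 for Spc24, -0.69 for Ndc80 and -0.41 for Nuf2. Spc25 was at 10.3 and 14.8 CPM in control and 5.71 and 7.75 CPM in Lhx2 cKO, a spread within each group that was wide beside the gap between groups. Nuf2 was at 18.4 and 24.4 CPM against 14.8 and 17.5 CPM (SE 0.145, adjusted p 0.0398), the weakest call of the subgroup. Cenpe, a kinesin of the outer kinetochore, was called lower at -0.59, and Cenpf, a large coiled-coil protein, was at 27.1 and 32.8 CPM against 20.6 and 20.1 CPM (log2 fold change -0.56, SE 0.125, adjusted p 8.25e-04). Without control 2 only Cenpa, Cenpe and Spc24 were called, and Nuf2 was at -0.19 (adjusted p 0.536); Nuf2 was also not called by DESeq2 (0.117) or without Lhx2 cKO 1 (0.24), nor Ndc80 without Lhx2 cKO 2 (0.0503).

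The chromosomal passenger complex corrects faulty attachments and moves to the midzone at anaphase. Its scaffold Incenp, the highest of the 4 per length at 8.71 CPM per kb, was at 44.5 and 45.9 CPM in control and 28 and 32.4 CPM in Lhx2 cKO (log2 fold change -0.58, SE 0.109, adjusted p 8.37e-05). Cdca8, or borealin, was at 25.3 and 25.8 CPM against 18 and 17.2 CPM (-0.54, SE 0.128, adjusted p 0.00175). Its kinase Aurkb was at 11.7 and 15.1 CPM against 8.70 and 10.4 CPM (-0.48, SE 0.171, adjusted p 0.037), a call lost under DESeq2 (0.104), without control 2 (-0.29, 0.405) and without Lhx2 cKO 1 (0.225). Birc5, or survivin, was at 13.5 and 14.0 CPM against 10.7 and 11.8 CPM and was not called (-0.30, 95% interval -0.61 to 0.02, adjusted p 0.193). In each of the 4 genes both Lhx2 cKO libraries lay below both control libraries, as they did in 29.1% of all genes tested.

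Spindle motors and assembly factors had the lowest median of the 7 subgroups, with 7 of 8 called lower and 0 higher. Nusap1, which bundles spindle microtubules, was at 21.1 and 22.4 CPM in control and 11.4 and 10.6 CPM in Lhx2 cKO. Its log2 fold change of -0.98 (SE 0.146, adjusted p 1.65e-06) was the lowest value of the 54 members. Nusap1 overlaps Oip5 on the other strand over 4.2% of its exonic bases. Kif11, the Eg5 kinesin that separates the spindle poles, was at 22.8 and 22.8 CPM against 12 and 11.6 CPM (-0.95, SE 0.142, adjusted p 1.83e-06). Libraries within a group were close for both genes, and the groups stood far apart. Tpx2, a spindle assembly factor that activates Aurka, had the highest level per length of the subgroup, 7.19 CPM per kb, and was at 40.9 and 43.2 CPM against 25.9 and 24.6 CPM (-0.74, SE 0.11, adjusted p 1.97e-06). The kinesins Kif4, Kif18b and Kif15 were called lower at -0.86, -0.81 and -0.66. Kif4 lies on the X chromosome and overlaps Pdzd11 on the other strand.

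Kif2c, a kinesin that takes microtubules apart at centromeres, was at 17.2 and 18.5 CPM in control and 13.9 and 12.1 CPM in Lhx2 cKO (log2 fold change -0.46, SE 0.148, adjusted p 0.0218), a call lost under DESeq2 (0.0536), without control 2 (0.127) and without Lhx2 cKO 2 (0.198). Hmmr, a spindle protein that is also a hyaluronan receptor, was at 8.91 and 9.04 CPM against 8.31 and 4.57 CPM and was not called (-0.48, adjusted p 0.108). Lhx2 cKO 1 was close to control for Hmmr and Lhx2 cKO 2 was not: without Lhx2 cKO 1 the log2 fold change was -0.97 (adjusted p 0.00273). Mybl2 and Hmmr differed between the Lhx2 cKO libraries in the same direction.

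Of the midzone and cytokinesis genes, 5 of 7 were called lower and 0 higher. Ect2, the exchange factor that activates RhoA at the cleavage furrow, was at 13.5 and 13.8 CPM in control and 7.47 and 8.75 CPM in Lhx2 cKO (log2 fold change -0.75, SE 0.169, adjusted p 9.05e-04). Anln, the furrow scaffold anillin, was at 6.89 and 7.72 CPM against 5.19 and 4.18 CPM (-0.64, SE 0.221, adjusted p 0.0325), and its call was lost under DESeq2 (0.0801) and without either control or Lhx2 cKO 2 (0.0551, 0.176 and 0.262). Racgap1, a GTPase-activating protein, had the highest level per length of the subgroup, 6.68 CPM per kb. It was at 54.6 and 60.3 CPM against 35.5 and 38.9 CPM (-0.63, SE 0.104, adjusted p 1.19e-05). Prc1 overlaps Rccd1 on the other strand over 11.1% of its exonic bases. Kif20b was called lower at -0.59 and the midzone bundler Prc1 at -0.37, the latter near the threshold (adjusted p 0.0479) and lost with a mean count of at least 50 (0.0559), under DESeq2 (0.12) and without control 2 (0.33) or Lhx2 cKO 2 (0.391). The number called lower in the subgroup was 3 under DESeq2 and without control 2, and 2 without Lhx2 cKO 2.

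Kif23 and Kif20a, both kinesins of the spindle midzone, were not called. Kif23 measured 18.1 and 18 CPM in control and 17.7 and 16.8 CPM in Lhx2 cKO. Its log2 fold change was -0.065, and the 95% interval from -0.34 to 0.21 does not reach the member median of -0.62. Kif20a was at 8.78 and 9.80 CPM against 9.80 and 7.31 CPM (-0.12, 95% interval -0.50 to 0.26, adjusted p 0.709), the groups overlapped, and 29.3% of its exonic bases overlap Cdc23 on the other strand. Kif23 and Racgap1 form centralspindlin together. Their log2 ratio, Kif23 over Racgap1, was -1.59 and -1.75 in control against -1.01 and -1.21 in Lhx2 cKO, higher in both Lhx2 cKO libraries by a mean of 0.56. The ratio of securin Pttg1 to separase Espl1 was -1.76 and -1.75 against -0.99 and -1.39, that of Bub3 to Bub1 was 2.46 and 2.02 against 2.96 and 2.53, and that of Aurka to its activator Tpx2 was -1.51 and -1.56 against -1.21 and -1.10. These 4 pairs were chosen after their values were seen, and an exact permutation test of 2 against 2 libraries cannot give a two-sided p below 0.333, the value of each pair.

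All 7 condensin and mitotic chromosome genes were called lower. Mki67, which coats mitotic chromosomes, was at 129 and 155 CPM in control and 78.5 and 77 CPM in Lhx2 cKO (log2 fold change -0.87, SE 0.0994, adjusted p 5.85e-09), the smallest p of the 54 members. Top2a, the topoisomerase that untangles sister chromatids, was at 85.3 and 91.1 CPM against 48.8 and 48.4 CPM (-0.86, SE 0.0992, adjusted p 8.17e-09). In both genes the Lhx2 cKO libraries were nearly equal and kept 54.6% and 55.1% of the control mean. Ncapd2, a subunit of condensin I, had the highest level per length of all members, 17.4 CPM per kb, and was at 126 and 131 CPM against 90.8 and 87.3 CPM (-0.53, SE 0.0946, adjusted p 4.2e-05).

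The other condensin genes Smc4, Ncaph and Ncapg were called lower at -0.68, -0.61 and -0.54. Smc2, the partner of Smc4, was at 25.4 and 26.2 CPM in control and 19.9 and 19.9 CPM in Lhx2 cKO (-0.37, SE 0.125, adjusted p 0.0275); the groups did not overlap, but the call was lost under DESeq2 (0.0623) and without each library in turn (0.0769 to 0.121). Without Lhx2 cKO 2, 4 of the 7 genes were called lower, and Ncapg was lost without each library in turn. Ncapg overlaps Lcorl on the other strand over 13.4% of its exonic bases.

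Other genes of the same machinery were also lower in part. Over 9 lists of mitotic genes outside the 54, 32 of 133 genes (24.1%) were called lower and 0 higher, with a median log2 fold change of -0.21, against 9.17% called lower among all genes tested. The count was 16 without Lhx2 cKO 2, 21 without control 1, 23 without control 2, 23 without Lhx2 cKO 1 and 22 with DESeq2. The APC/C list had 1 of 17 called lower and a median of -0.02. That gene was Fbxo5, or Emi1, an inhibitor of the APC/C, at 13.2 and 14.8 CPM in control and 8.17 and 7.92 CPM in Lhx2 cKO (log2 fold change -0.80, adjusted p 4.1e-04). The list of other centromere and kinetochore genes had 6 of 27 called lower and a median of -0.34, with 3 called lower without Lhx2 cKO 2. Hjurp, the chaperone that loads Cenpa, was at 64.9 and 72.4 CPM against 32.9 and 37.2 CPM (-0.97, adjusted p 1.7e-09), and the kinetochore scaffold Knl1 was at 9.16 and 9.44 CPM against 2.72 and 4.57 CPM (-1.35, adjusted p 1.63e-05). Oip5, a centromere licensing factor, was at -1.38 (adjusted p 0.00321), lost without Lhx2 cKO 2 (0.12).

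Other checkpoint genes had 4 of 9 called lower, 2 without either control or without Lhx2 cKO 2 and 1 with DESeq2, among them Kntc1 and Zwilch of the RZZ complex, at -0.85 and -0.53, and the kinase Nek2 at -0.64. Zwilch lost its call under DESeq2 (adjusted p 0.0894) and without control 1 (0.236) or Lhx2 cKO 2 (0.323), and Nek2 under DESeq2 (0.097) and without control 2 (0.578) or Lhx2 cKO 1 (0.121). Mitotic entry regulators had 3 of 12 called lower, and 1 without control 1. Wee1, the kinase that restrains Cdk1, was at 13.9 and 14.4 CPM in control and 6.11 and 7.23 CPM in Lhx2 cKO (-1.08, adjusted p 7.08e-06). Its relative Pkmyt1 was at -0.64 and the Cdk1 subunit Cks1b at -0.54, both lost without control 1 (0.0579 and 0.0605). Cdc25b, the phosphatase with the opposite action to Wee1, was also lower.

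Other spindle genes had 8 of 22 called lower, and 3 without control 2 or without Lhx2 cKO 2, among them Spag5 at -0.66, Numa1 at -0.50 and the kinesin Kif14 at -0.85. Numa1 lost its call without control 1 (adjusted p 0.0592), and Kif14 without control 1 (0.0675) or Lhx2 cKO 2 (0.102). Cytokinesis and abscission genes had 3 of 16 called lower, 0 without Lhx2 cKO 1 and 1 without control 1. Cit, citron kinase, was at -0.59 and Myh9, a non-muscle myosin, at -0.31, and both were lost without control 1 (0.0538 and 0.178) or Lhx2 cKO 1 (0.0636 and 0.132). Cep55, an abscission scaffold, was at -0.64 and was lost under DESeq2 (0.0523) and without control 2 (0.203), Lhx2 cKO 1 (0.0865) or Lhx2 cKO 2 (0.0569).

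Cohesin had 4 of 15 genes called lower, 1 without Lhx2 cKO 2 and 2 without control 1, among them the loaders Nipbl (-0.36) and Mau2 (-0.35) and the release factor Wapl (-0.35). Each was lost without Lhx2 cKO 2 (adjusted p 0.0503, 0.0687 and 0.247), and Wapl also without control 1 (0.0638). Condensin II had 1 of 3, Ncapd3 at -0.34, which was lost under DESeq2 (0.0819) and without each library in turn (0.0605 to 0.196). The DREAM and MuvB list had 2 of 12 (16.7%), where 9.17% of all genes tested were called lower. With DESeq2 it had 1 of 12, where 7.34% of all genes were. Whether this list, condensin II or the cytokinesis and abscission list exceeds the share of all genes was not tested. Rbbp4 (-0.35) was lost without control 1 (0.0636) or Lhx2 cKO 1 (0.105), and Rbl1 (-0.43) was lost under DESeq2 (0.125), with a mean count of 50 or more (0.0579) and without control 2 (0.378) or Lhx2 cKO 2 (0.392).

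**Figure D4:**
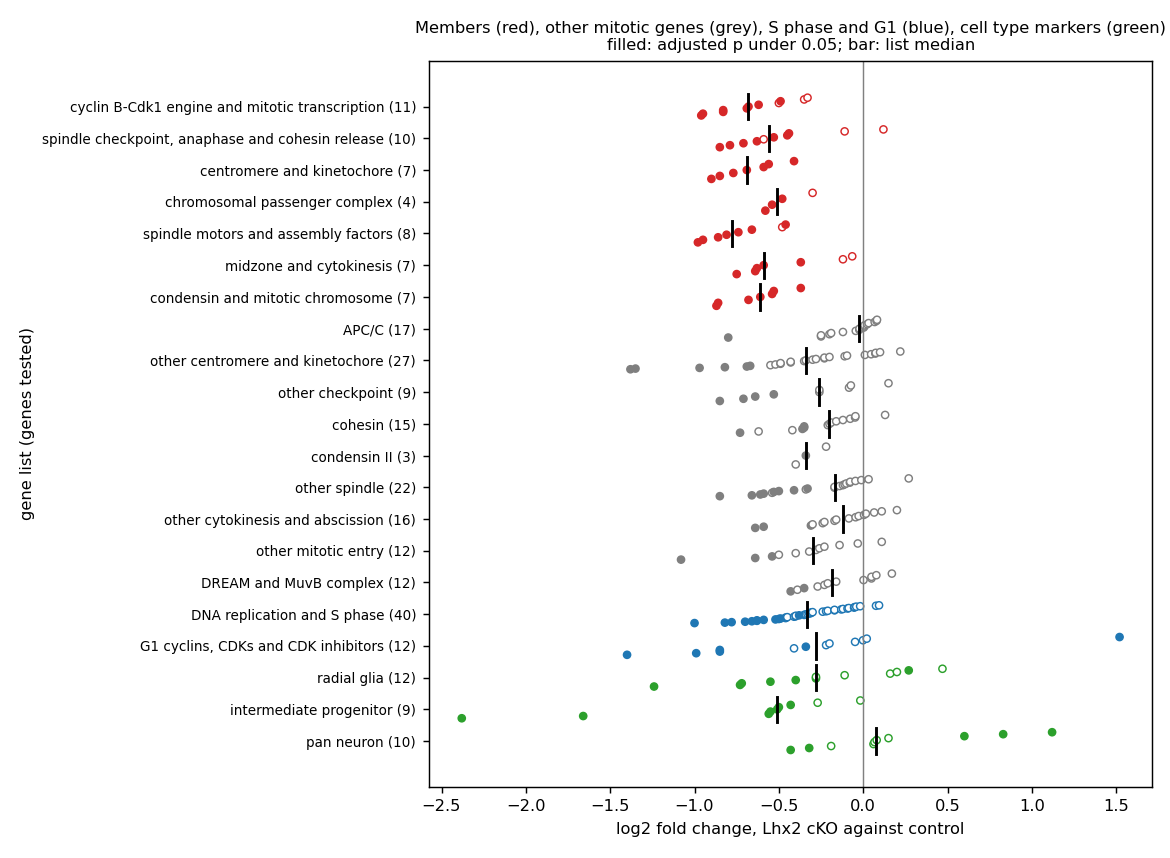
Log2 fold change of each gene (horizontal axis) in each list (vertical axis, with the number of genes tested): members in red, other mitotic genes in grey, S phase and G1 genes in blue and radial glia, intermediate progenitor and pan-neuronal markers in green; filled points were called and bars are list medians. Medians of the 7 member subgroups lie between -0.77 and -0.51, and that of the APC/C list is -0.02.

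Genes of the earlier phases of the cycle were set beside the members. Of 40 DNA replication and S phase genes, 15 (37.5%) were called lower and 0 higher, with a median log2 fold change of -0.34, led by Uhrf1 (-1.0), Mcm2 (-0.82) and Mcm3 (-0.70). Without Lhx2 cKO 2 the count was 9, and without either control 11. Of 12 G1 genes, 5 were called lower and 1 higher. Cdk6, a G1 kinase, was at 62.9 and 74.1 CPM in control and 25.4 and 26.4 CPM in Lhx2 cKO (-1.40, adjusted p 1.61e-13), and Ccnd2 was at -0.85 and Cdkn1b, which encodes p27, at -0.99. Cdkn1a, which encodes the inhibitor p21, was at 4 and 3.28 CPM against 11.1 and 9.84 CPM (1.52, adjusted p 4.26e-07). The difference between the member list and these lists was not tested.

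Markers of several cell types differed between the same groups, and their part in the members' change was not tested. Radial glia markers had 6 of 12 called lower and 1 higher. Their median log2 fold change was -0.28, and 8 of 12 had a negative value. With DESeq2, 5 were called lower. In the authors' deposited table Pax6, Sox9 and Notch1 were at -1.25, -0.74 and -0.73, and Emx2, Nes and Prom1 at -0.56, -0.41 and -0.29. The 1 higher was Slc1a3 (log2 fold change 0.27, adjusted p 0.0425). The summed level of the list was 943 to 1000 CPM in control and 861 to 890 CPM in Lhx2 cKO. The call of Slc1a3 was lost with library totals alone (0.0603), with DESeq2 (0.0876) and without control 1 (0.532), Lhx2 cKO 1 (0.0696) or Lhx2 cKO 2 (0.194). Intermediate progenitor markers had 7 of 9 called lower and 0 higher, summing to 1030 CPM in each control library and 656 to 665 CPM in Lhx2 cKO. Eomes, their defining factor, was at 215 and 216 CPM against 68.8 and 67.7 CPM. Pan-neuronal markers had 2 of 10 called lower and 3 higher, with 4740 to 4820 CPM against 4940 to 5230 CPM, and 1 was lower without control 1 or without either Lhx2 cKO library. Microglia markers had 0 called lower and 9 of 10 higher, with 119 to 121 CPM against 244 to 270 CPM, and oligodendrocyte precursor markers had 0 lower and 5 of 7 higher, with 56.9 to 64.0 CPM against 98.7 to 105 CPM. Vascular and meningeal markers had 2 of 8 lower and 4 higher (247 to 270 CPM against 280 to 309 CPM). Without control 1 the number higher was 2, with Kdr (adjusted p 0.316) and Pecam1 (0.41) lost, and without control 2 or Lhx2 cKO 2 the number lower was 1. Against the summed level, the collagen gene Col1a1 was at 25.7 and 23.0 CPM in control against 4.44 and 1.65 CPM in Lhx2 cKO (adjusted p 2.57e-14). Col1a2, the other collagen gene of the list, did not share this drop. In the authors' deposited table its log2 fold change was 0.24 (adjusted p 0.43). Red blood cell markers had 5 of 7 lower and 1 higher, with a summed level of 2340 to 3180 CPM against 1900 to 2130 CPM. The 1 higher was the embryonic globin Hbb-y, with a log2 fold change of 0.49. Of the 5 lower, only Hbb-bt was called without control 1, and 3 were called without Lhx2 cKO 2 or with DESeq2. Hbb-y was lost without control 2 (0.0581) or Lhx2 cKO 1 (0.106). No gene measured from these lists was at 0 in any library.

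**Figure D5:**
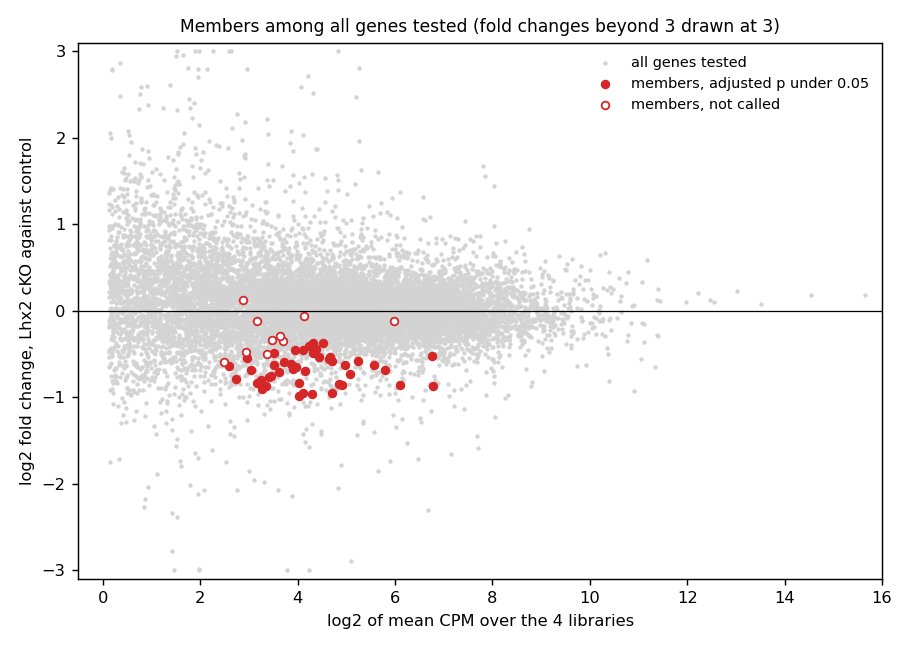
Log2 fold change (vertical axis) against log2 of the mean CPM over the 4 libraries (horizontal axis) for the 13288 genes tested in grey and the members in red, filled where called. The members lie below 0 except Pttg1, at mean levels from 5.59 to 110.0 CPM.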

How the data were processed

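Polyadenylated RNA from fresh tissue was sequenced, 2 libraries per group. The submitters' processing notes name Trim Galore, Subread, featureCounts and edgeR and the build mm39; versions, strand setting and annotation are not given in the sources used here. The authors deposited 1 table of raw counts per gene, with their log2 fold change and mean log2 CPM, p-value and adjusted p-value, -log10 of the adjusted p-value and gene length; the lowest row total was 102 counts.

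Counts were tested with edgeR 4.0.16 in R 4.3.3 (TMM, factors 0.973 to 1.02; filterByExpr, minimum count 10; quasi-likelihood test, two-sided, Benjamini-Hochberg over 13288 genes; common biological coefficient of variation 8.27%). SEs are the absolute log2 fold change over the square root of F, and 95% intervals use the total degrees of freedom. The prior had 38.7 degrees of freedom, against 2 from a gene's own libraries. The p-values, SEs and intervals thus rest mostly on variation pooled over all genes. Replicate libraries were not duplicates of each other, with a chi-square over its degrees of freedom of 13.9 in control and 14.3 in Lhx2 cKO. The floor of 3 counts covers counting error only. The fit was tested on simulated data, where it called 95 of 100 genes changed 2-fold and 70 of 100 changed 1.5-fold, among 13288 genes. Those counts were drawn with the fit's own dispersions and far fewer genes changed than were called here, so the shares describe a favourable case. The run was set to stop if the 2-fold share was low. Overlaps and near-identical copies (at least 95% over 150 bases) were read from GENCODE M21 on GRCm38, not the authors' build, so no coordinates of genes are printed; without a stated strand setting, reads of genes on opposite strands cannot be told apart. Promoters are from RefSeq on GRCm38.p6.

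Alternatives were RLE factors, library totals, no filter, genes averaging 50 counts or more, the replicate block, DESeq2 1.42.0, an adjusted p of 0.01 and leaving out each library. The members, subgroups, lists and motifs were chosen with earlier results of these data known. Values in every library are given, for each subgroup, for the 2 lowest and 2 highest fold changes, members not called and the highest level per length; in pathway, S phase and G1 lists up to 3 called genes of smallest p, and any called against the list's direction, are named. Further called members, and the cell type markers named, were chosen after their values were seen.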

Additional observations from a re-analysis of the deposited data

How the results depend on the processing

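The members' counts and medians kept their direction under every alternative run. The runs with RLE factors, library totals or no filter could hardly differ from the main fit. The number called lower was 44 with RLE factors and without a filter, 43 among genes averaging 50 counts or more, 45 with library totals and 45 with the replicate block, 36 with DESeq2 and 35 at an adjusted p under 0.01; leaving out 1 library in turn it ranged from 28 to 42, and the member median from -0.695 to -0.553. No member was called higher in any of these. Over all genes 2758 were called, 1697 at an adjusted p under 0.01, fewer by construction, 2874 with the replicate block, and 1633 to 2396 without 1 library. Kif20a, not called, ranged from -0.346 without Lhx2 cKO 1 to 0.073 without Lhx2 cKO 2; the cause was not tested. Equal replicate numbers do not mark a known pair: deviations of replicate 1 from replicate 2 in the 2 groups had a correlation of -0.005 across genes, and with the block Mybl2 was called (-0.532, adjusted p 0.032) and Rbl1 was not (0.0517). Fits without 1 library leave 1 in its group, which is assumed to vary like the rest. With 2 libraries per group precision is limited: members not called had a median standard error of 0.177, against 0.143 for those called.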

Other observations

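Promoters of S phase genes were read with the same motifs. TTTNGCGC, an E2F-like site, was present on either strand in 27.8% of 36 promoters of the DNA replication and S phase list, in 8.33% of the 48 member promoters, in 2.31% of the promoters of genes in the count table and in 1.38% of all promoters. Either CHR-like hexamer was present in 22.2% of the S phase promoters, 79.2% of the member promoters, 19.2% of the promoters of genes in the count table and 27.6% of all promoters. CCAAT was present in 61.1%, 75%, 37.7% and 37.4% of them. For the APC/C list, 19 promoters held either hexamer in 15.8% and CCAAT in 42.1%. Within the members, the 8 promoters of 6 midzone and cytokinesis genes each held TTTGAA, that of Kif23 included. These shares describe letters in a window of fixed length and were not tested.

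Fold change showed little relation to abundance or gene length among the members, 54 genes read in the same 4 libraries. Pearson's r was -0.10 with log2 mean CPM, -0.12 with log2 CPM per kb and 0.03 with log2 gene length, and Spearman's rho was -0.06, -0.12 and 0.01. Levels per length spanned from 0.661 CPM per kb for Anln to 17.4 CPM per kb for Ncapd2.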
